A study of Rattus norvegicus with 4 samples.

Results

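The genes described here encode the core histones H2A, H2B, H3 and H4 and the linker histone H1, measured in NR8383, a continuous rat line of alveolar macrophages (the phagocytes of the lung's air spaces) that was derived by lavage of a normal animal. Members were the named genes whose symbol starts with H1f, H2ac, H2bc, H2az, H2ax, H3c, H3f, H4c or Hist, with Macroh2a1 and Macroh2a2 added. This gave 31 genes out of 16575 named on the array. The reference gene table, of the GRCr8 rat assembly, held 89 such symbols, of which 58 had no probe named through it here. Among the genes without a named probe were H3f3a, H3c1, H1f2 and H1f10, so H3 and H1 were sampled thinly. By symbol, the 31 genes were sorted into 18 replication-dependent genes, 7 replacement genes and 6 germline genes.

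All 4 cultures (replicates 1 to 4) belonged to 1 group. They had been exposed for 4 h to titanium dioxide particles of type NM105, also called P25 (anatase and rutile crystals together), with 3 cm2 of particle area for each cm2 of culture. Every culture was NR8383 at 20 passages, grown with 15% serum and seeded 48 h earlier, and NR8383 is 1 cell line. Cultures without particles were not analysed here, and no value given is a response to the particles. Expression was read on 1-colour Agilent arrays, 1 array per culture and all 4 on 1 slide.

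A nucleosome wraps DNA around an octamer of core histones, and H1 binds the linker DNA between nucleosomes. Replication-dependent histone genes lie in clusters, are transcribed mainly in S phase, and give mRNAs that end in a stem-loop in place of a poly(A) tail. Replacement histone genes are expressed through the cell cycle, lie apart from the clusters, and mostly give ordinary polyadenylated mRNAs. Labelling that is primed from the poly(A) tail can therefore be expected to pick up the second class more completely than the first. The labels name a Cy3 labelling kit of Agilent for total RNA, whose usual primer is oligo(dT), but the primer used is not given in the sources used here. Mature macrophages in tissue divide slowly, whereas a continuous line such as NR8383 divides in culture.

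The promoters are shown because their letters are fixed in the genome, apart from any signal. RefSeq promoter sequences (GRCr8) were found for 30 of the 31 genes, H4c14 being the one missing. The 120 bases just before the annotated start are printed for 5 replication-dependent genes, 1 for each histone type, and for 2 replacement genes, 5′ to 3′ on the strand of the gene. Capitals mark 3 motifs. The CCAAT box was searched on both strands and reads ATTGG where it lies on the opposite one. TATAA is in capitals on the strand of the gene only. The octamer ATTTGCAT was searched on both strands and reads ATGCAAAT on the opposite one. These motifs do not overlap in the lines printed. The table gives 1 start per gene, which lies inside the annotated gene, not at its outer end, in 4 of 7 replacement genes (H2az1 and H3f3b among them), 3 of 17 replication-dependent genes and 0 of 6 germline genes.
H1f4 (chr17:41914305-41914424, plus strand): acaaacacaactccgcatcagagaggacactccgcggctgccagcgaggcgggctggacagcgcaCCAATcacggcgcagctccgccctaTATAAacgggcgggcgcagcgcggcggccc
H2ac4 (chr17:47496128-47496247, minus strand): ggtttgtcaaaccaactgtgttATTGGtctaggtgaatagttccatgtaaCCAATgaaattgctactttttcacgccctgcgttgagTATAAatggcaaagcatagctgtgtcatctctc
H2bc12 (chr17:47181941-47182060, minus strand): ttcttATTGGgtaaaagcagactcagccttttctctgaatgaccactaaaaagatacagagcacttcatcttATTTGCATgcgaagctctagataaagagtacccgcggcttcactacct
Hist2h3c2 (chr2:186526042-186526161, plus strand): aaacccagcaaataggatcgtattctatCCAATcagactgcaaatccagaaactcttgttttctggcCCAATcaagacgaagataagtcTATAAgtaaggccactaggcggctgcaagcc
Hist1h4m (chr17:47393644-47393763, plus strand): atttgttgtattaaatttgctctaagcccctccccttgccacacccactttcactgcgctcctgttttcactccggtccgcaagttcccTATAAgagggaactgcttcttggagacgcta
H2az1 (chr2:229028975-229029094, plus strand): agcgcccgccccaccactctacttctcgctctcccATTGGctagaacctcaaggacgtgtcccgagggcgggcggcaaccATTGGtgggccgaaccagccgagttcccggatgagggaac
H3f3b (chr10:101757637-101757756, minus strand): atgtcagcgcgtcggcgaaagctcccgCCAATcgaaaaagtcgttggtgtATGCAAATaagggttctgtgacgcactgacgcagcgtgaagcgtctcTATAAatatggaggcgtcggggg

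In H1f4, H2ac4, Hist2h3c2 and Hist1h4m the letters TATAA began 30, 33, 31 and 31 bases before the start. Over the 250 bases before the start and on either strand, TATAA was present in 16 of 17 replication-dependent promoters, Hist1h2bq being the one without it, in 2 of 7 replacement promoters (H2ax and H3f3b), in 3 of 6 germline promoters and in 24.0% of all 33469 promoters of that length. On the strand of the gene, with all its letters 60 to 20 bases before the start, where a TATA box usually lies, it was present in 10 of 17 replication-dependent promoters, in 1 of 7 replacement promoters (H2ax), in 3 of 6 germline promoters and in 3.95% of all. In H3f3b it began 23 bases before the start and so ended just past that window. CCAAT on either strand was present in 15 of 17 replication-dependent, 4 of 7 replacement, 5 of 6 germline and 34.0% of all promoters. The 2 replication-dependent promoters without it were those of the H4 genes Hist1h4b and Hist1h4m. The octamer, known as an element of H2B promoters, was present on either strand in 5 of 17 replication-dependent promoters, 1 of 7 replacement promoters, 2 of 6 germline promoters and 1.56% of all. The 5 were H2bc12, Hist1h2af, H2ac25, Hist1h2an and Hist1h2bq, of which the last 3 gave no signal above background. H3f3b was the replacement gene with the octamer. A match of letters is a description and does not show that a factor binds there.

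Both classes were read in these cells. A gene was detected on an array when Agilent's software marked a probe of it as well above background. Of 18 replication-dependent genes, 14 (77.8%) were detected on every array and the other 4 on none. Of 7 replacement genes, 6 (85.7%) were detected on every array and the other, Macroh2a2, on none. Over all 16575 named genes 35.2% were detected on all 4 arrays, so both classes were detected more often than named genes in general. The difference between the classes was 1 undetected gene in 7 against 4 in 18, too few genes to set the classes apart. The lowest signal of a detected gene over the 4 arrays was 3.48 to 4358 times the 99th percentile of negative control spots in replication-dependent genes and 14.4 to 315.2 times in replacement genes. These counts of detected genes stayed at 14 and 6 when signal was set against negative control spots, when every spot had to pass, when only the brightest probe counted, and without any 1 array. Histone mRNAs are short and very alike, so a probe named for 1 copy may also bind RNA of another, and detection of a named gene is detection of that gene or its near-identical copies.

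The genes without signal were the linker histone gene H1f1, the H2A genes H2ac25 and Hist1h2an, the H2B gene Hist1h2bq, and Macroh2a2, which encodes a large H2A variant. Of the 6 germline genes, 5 were not detected on any array. They were the testis linker histone genes H1f6 and H1f7, the oocyte linker histone gene H1f8, and H2ac1 and H2bc1, which encode the testis histones TH2A and TH2B. The exception was H3f4, known earlier as Hist3h3, an H3 gene whose human counterpart is known from testis. Both of its probes were detected on every array. Its place in the germline class was set by symbol alone and is uncertain. Of 4 markers of male germ cells, protamines and transition proteins, none was detected on all 4 arrays and 1 was detected on some.

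**Figure D1:**
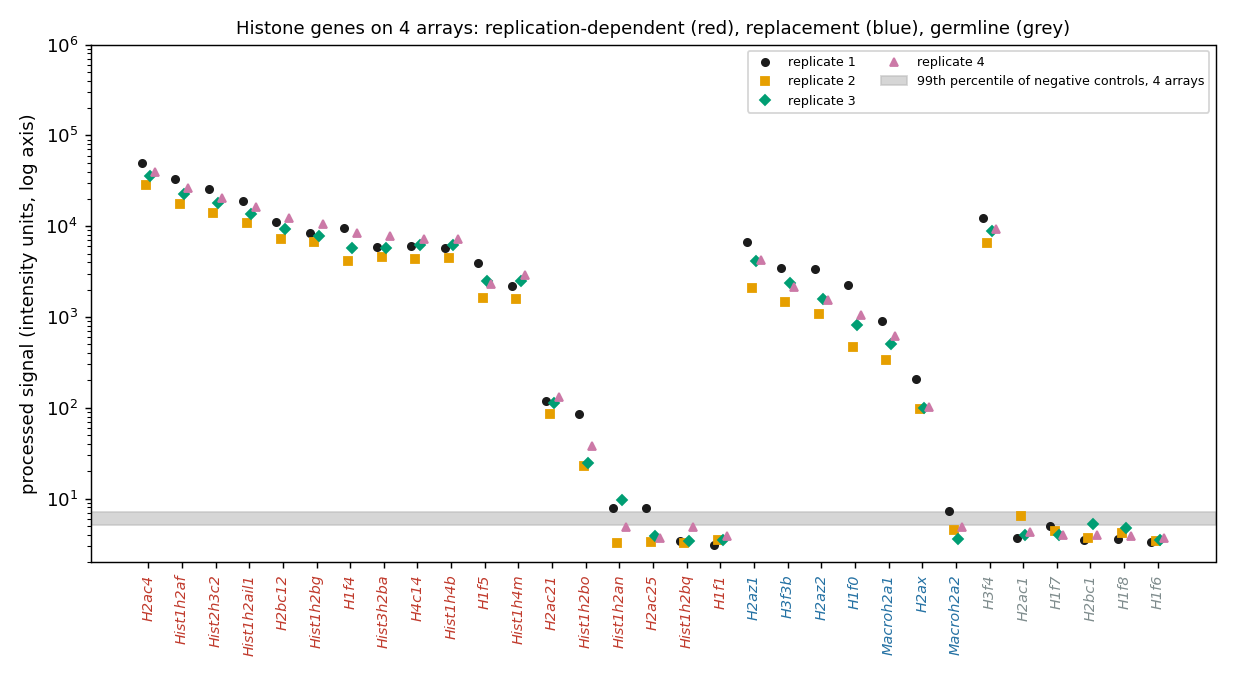
Processed signal in intensity units on a log axis for each of the 31 histone genes on each of the 4 arrays, with the gene's brightest probe shown and the band giving the 99th percentile of negative control spots. The 21 detected genes stand clear of the band on every array and the 10 others lie in or near it; heights of different genes are not comparable.

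Values below are levels, that is log2 processed signal minus the 75th percentile, on the same array, of the probes detected on all 4 arrays. That reference was 1431, 585, 767 and 831 intensity units on replicates 1 to 4, so raw signal was highest on replicate 1 for most genes. Each gene is compared only with itself over the arrays, because probes differ in brightness. Means are given with the SD over 4 arrays.

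Among linker histones, H1f4 encodes the main somatic H1 of many cells. It was read at levels of 2.74, 2.82, 2.92 and 3.34 on replicates 1 to 4, a mean of 2.95 ± 0.27 (SD, n = 4). H1f5, another somatic H1 of dividing cells, was at 1.45, 1.48, 1.69 and 1.46, with a mean of 1.52 ± 0.11. For H1f4 replicate 4 stood highest, and for H1f5 replicate 3 did, so the linker histones shared no order of the arrays beyond being lowest on replicate 1 by a small margin.

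Histone H2A pairs with H2B in the nucleosome. H2ac4 gave levels of 5.11, 5.62, 5.55 and 5.59, a mean of 5.46 ± 0.24, from raw signals of 49260, 28760, 35840 and 39940 intensity units. Hist1h2af was at 4.55, 4.89, 4.88 and 4.99, with a mean of 4.83 ± 0.20. Hist1h2ail1, an entry under the H2A name that the reference table also lists as an H3 histone, was at 3.73, 4.21, 4.14 and 4.29, with a mean of 4.09 ± 0.25. In each of these replicate 1 was the low array, while the other 3 lay close together. Once the arrays were normalized to each other by quantiles, the SDs of these genes were smaller, at 0.088, 0.125 and 0.123. H2ac21 was dim, with 118.6, 84.6, 113.6 and 130.2 intensity units, and its levels of −3.59, −2.79, −2.76 and −2.68 (mean −2.95 ± 0.43) again put replicate 1 apart on the low side.

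H2B is the partner of H2A, and 4 of its 5 measured genes were detected. H2bc12 gave levels of 2.94, 3.63, 3.61 and 3.87, a mean of 3.52 ± 0.40. Hist1h2bg was at 2.55, 3.50, 3.33 and 3.67, with a mean of 3.26 ± 0.50, and Hist3h2ba at 2.03, 2.97, 2.90 and 3.22, with a mean of 2.78 ± 0.52. All 3 were lowest on replicate 1 and highest on replicate 4. Hist1h2bo ran the other way, at −4.06, −4.67, −4.96 and −4.44 (mean −4.53 ± 0.38). Its raw signals of 86.0, 23.0, 24.6 and 38.2 intensity units came from a single spot per array, and the dimmest was 3.48 times the 99th percentile of negative controls, against 12.8 times for H2ac21, the next dimmest of its class.

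H3 and H4 form the tetramer at the heart of the nucleosome. The H3 gene Hist2h3c2 was at levels of 4.18, 4.59, 4.55 and 4.60, a mean of 4.48 ± 0.20. H3f4, of the germline class, was also lowest on replicate 1 on its brighter probe, at 3.08, 3.51, 3.54 and 3.53, with a mean of 3.41 ± 0.23. All 3 H4 genes were detected and were among the most variable members. H4c14 was at 2.10, 2.88, 3.00 and 3.11 (mean 2.77 ± 0.46), Hist1h4b at 2.02, 2.94, 3.00 and 3.12 (mean 2.77 ± 0.51), and Hist1h4m at 0.61, 1.43, 1.70 and 1.80 (mean 1.38 ± 0.54). Replicate 1 stood below the other 3 arrays in each, and replicate 4 highest. Mammalian H4 genes encode 1 protein, and in the reference table the 3 share older symbols such as H4c2 and Hist4h4, so they cannot be counted as 3 independent readings.

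Replacement histones gave other orders of the arrays. H2az1, the main gene of H2A.Z, a variant placed around active promoters, was at 2.24, 1.83, 2.42 and 2.34, a mean of 2.21 ± 0.26. H2az2, the other H2A.Z gene, was at 1.24, 0.87, 1.04 and 0.90, with a mean of 1.01 ± 0.16. H3f3b, which encodes H3.3, the H3 variant laid down outside replication, was at 1.28, 1.34, 1.63 and 1.37, with a mean of 1.40 ± 0.16. On these probes the H2A.Z genes were lowest on replicate 2, and H3f3b was lowest on replicate 1 by a margin far below its spread. H1f0, the linker histone gene linked with cells that stop dividing, varied most in this class, at 0.67, −0.32, 0.10 and 0.32 (mean 0.19 ± 0.41). H2ax, whose protein is phosphorylated at DNA breaks, was at −2.78, −2.58, −2.93 and −3.04 (mean −2.84 ± 0.20). Macroh2a1, a large H2A variant of silent chromatin, was at −0.67, −0.80, −0.61 and −0.42 (mean −0.62 ± 0.16). Replicate 1 held the highest level of H1f0 and H2az2 and a middle level of H2az1, H2ax and Macroh2a1.

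**Figure D2:**
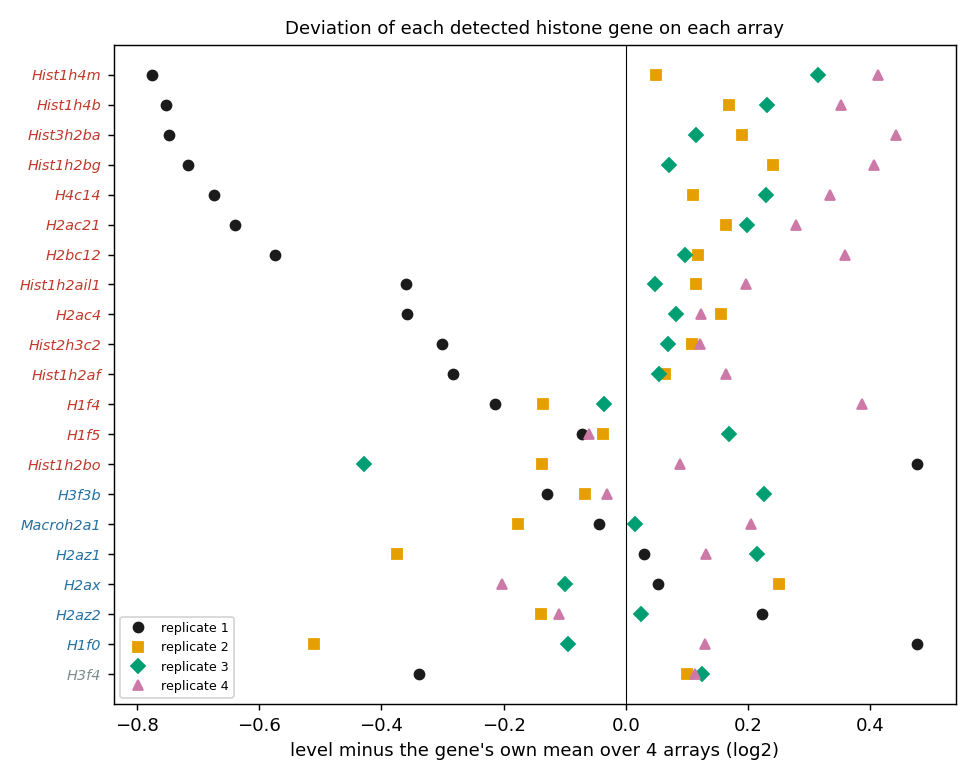
Deviation of each detected histone gene from its own mean over 4 arrays, in log2 units, by array, for 14 replication-dependent, 6 replacement and 1 germline gene. Replication-dependent genes lie low on replicate 1, apart from Hist1h2bo, and replacement genes lie on both sides of 0 there.

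The main pattern in these genes was thus a low replicate 1 in the replication-dependent class. Of its 14 detected genes, 13 had their lowest level on replicate 1, Hist1h2bo being the exception. Beside this stood 1 of 6 replacement genes and 25.0% of all 5822 named genes with a level. The classes were not matched for brightness, which is taken up below. Highest on replicate 4 were 11 of the 14, beside 1 of 6 replacement genes and 15.0% of all. The median deviation of the replication-dependent genes from their own means was −0.47, 0.11, 0.09 and 0.31 in the order of the replicates. In replacement genes it was 0.04, −0.16, 0.02 and 0.05, and over all named genes 0.06, −0.01, −0.01 and −0.01. The span between the lowest and the highest of these medians was 0.77 for replication-dependent genes, 0.21 for replacement genes and 0.07 for all. The median SD was 0.39 in the replication-dependent class, 0.18 in the replacement class and 0.23 over all. Without replicate 1 the median SD of the replication-dependent class was 0.12 and its span 0.16. In the same 3 arrays the median SD was 0.21 for replacement genes and 0.19 for all named genes, and the spans were 0.23 and 0.01. Highest on replicate 4 were then 12 of 14 replication-dependent genes, beside 30.4% of all. Without replicate 2, the span of the replacement class was 0.06.

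By histone type, the deviation on replicate 1 ran from −0.77 to −0.67 in the 3 H4 genes and from −0.75 to −0.57 in 3 of the 4 H2B genes, with Hist1h2bo at 0.48. It ran from −0.64 to −0.28 in the 4 H2A genes, was −0.30 in the H3 gene Hist2h3c2, and was −0.21 and −0.07 in the linker genes H1f4 and H1f5. These types share copies and overlap in range, and no test between them was made.

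Brightness moved with this pattern and is given beside it. Named genes with a mean level of 4 or above (145 genes) had a median deviation of −0.25 on replicate 1, and 75.9% of them were lowest there. Between 2 and 4 (315 genes) these values were −0.08 and 45.7%, between 0 and 2 (947 genes) 0.00 and 29.9%, and below 0 (4415 genes) 0.09 and 20.8%. Bright genes in general were thus more often lowest on replicate 1, the array with the most signal. The 4 replication-dependent genes at 4 or above lay between −0.36 and −0.28, near the median of their band. Between 2 and 4, the 6 replication-dependent genes lay between −0.75 and −0.21 with a median of −0.69, and the 5th percentile of all genes in that band was −0.46. H1f4 was the one of these 6 above that percentile. Between 0 and 2, Hist1h4m lay at −0.77 and H1f5 at −0.07, beside a 5th percentile of −0.39. Below 0, H2ac21 lay at −0.64 and Hist1h2bo at 0.48, beside a 5th percentile of −0.49. Of the 6 replacement genes, 2 had a mean level below 0, 3 lay between 0 and 2, and 1 between 2 and 4. None lay at 4 or above, so the classes were not matched for brightness. The 1 replacement gene lowest on replicate 1 lay between 0 and 2. Normalizing the arrays to each other by quantiles left 10 of 14 lowest on replicate 1, with a median deviation of −0.26, beside 28.0% of all genes. Cyclic loess, chosen after seeing the data, gave 10 of 14 beside 31.2% and a median of −0.27. Most of all genes had a mean level below 0, and the trend by level was not read again after either normalization. What part brightness has in the pattern was not tested beyond these values.

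**Figure D3:**
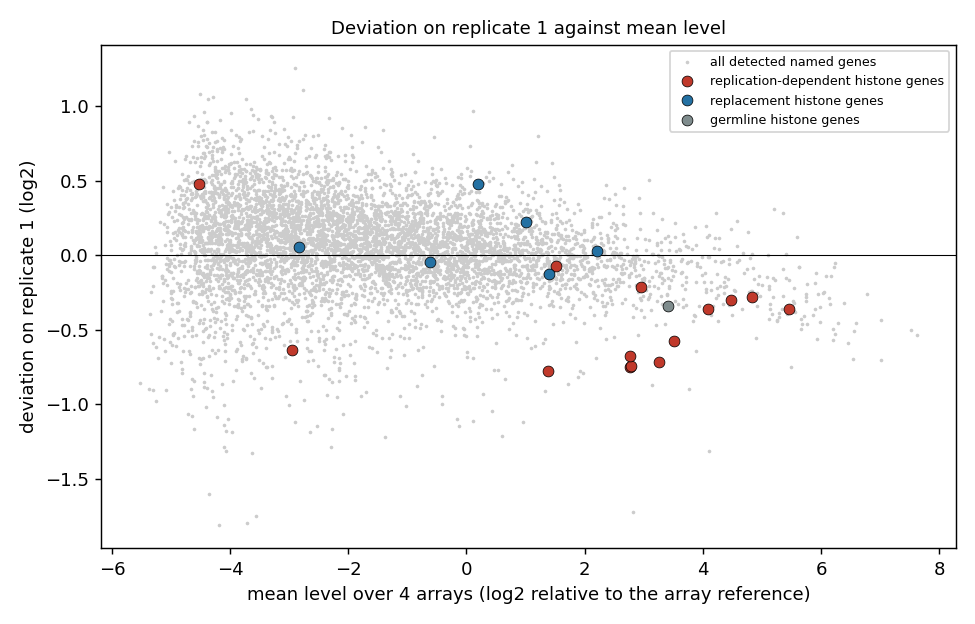
Deviation on replicate 1 (log2) against the mean level over 4 arrays (log2 relative to the array's reference) for all 5822 named genes with a level, with histone genes marked by class. The cloud bends down to the right, and the H2B and H4 genes with levels between 1 and 4 lie at its lower edge.

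Whether single genes differed between arrays by more than their repeated spots was tested with limma's moderated F test, on detected probes with at least 2 spots per array. Repeated spots of an array share 1 culture's RNA, so the p-values concern the arrays. Of 871 genes tested, 4.25% had an adjusted p under 0.05 and at least 2-fold between their highest and lowest array. Of 14 histone genes tested, 3 did. Both probes of H4c14 spanned 2.01-fold and 2.07-fold with limma adjusted p of 1.04e-04 and 8.49e-06. Hist1h4b spanned 2.15-fold (limma adjusted p = 1.10e-05) and Hist1h2bg 2.18-fold (limma adjusted p = 0.00165). All 3 encode H4 or H2B, and in all 3 replicate 1 was low. The H4 genes H4c14 and Hist1h4b cannot be counted as independent readings here either. Next to the threshold of size were H1f0 at 1.98-fold (limma adjusted p = 6.13e-20), which was high on replicate 1, and H2bc12 at 1.91-fold (limma adjusted p = 0.00236), which was low there. By adjusted p alone all 14 passed, as did 84.6% of all genes tested, so that count says nothing particular about histones. None of the 14 tested genes reached 2-fold under quantile normalization, under cyclic loess, without replicate 1 or without replicate 4. Over all genes tested, 3.21%, 3.21%, 1.15% and 3.43% were then called, so 0 of 14 is near those shares. In these settings 14, 13, 8 and 13 of the 14 had a limma adjusted p under 0.05. By unadjusted p under 0.05 these counts were 14, 13, 9 and 13. Genes read from 1 spot per array could not be tested, among them Hist1h4m and Hist3h2ba, which both spanned 2.28-fold over the 4 arrays.

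Several histone genes had more than 1 probe, which gives a second reading of the same RNA. The second probe of Hist1h2bg gave levels of 0.88, 2.06, 1.83 and 2.28 (mean 1.76 ± 0.62), again with replicate 1 lowest and replicate 4 highest. Both probes of H4c14 and both of H3f4 kept replicate 1 lowest, at 2.10 and 2.02 for H4c14 and 3.11 and 3.08 for H3f4. All 4 probes of H2az1 were detected and all were lowest on replicate 2, at 1.83, 1.33, 1.13 and 0.32. For H3f3b the probes disagreed, one being lowest on replicate 1 at 1.28 and the other on replicate 2 at 0.77. So did the 2 detected probes of H2az2 (of 4), one being lowest on replicate 2 at 0.87 and the other on replicate 4 at −0.29, so the order of the arrays for these replacement genes rests on the probe. Hist1h4b and Hist3h2ba each had 1 detected and 1 undetected probe. An undetected probe beside a bright one shows that a gene here rests on the probe chosen.

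Genes that act with histones were listed to set the pattern in context, beginning with the cell cycle. Of 24 measured genes of S phase, when replication-dependent histones are made, 21 were detected on all 4 arrays. Their median deviation was 0.11, −0.07, 0.04 and 0.05 on replicates 1 to 4, and 10 of the 21 were highest on replicate 1, beside 37.9% of all named genes with a level, a share near theirs. The helicase subunit genes Mcm2 and Mcm3 were at 2.57, 2.53, 2.36, 2.47 and at 1.05, 0.94, 0.85, 1.06. Mcm4 was at −1.52, −1.94, −1.67 and −1.71, and only Pcna, the sliding clamp of DNA polymerase, was lowest on replicate 1 among these 4, at −0.39, −0.08, 0.48 and 0.19. None of the 10 S phase genes tested passed limma's test with the 2-fold minimum, beside 4.25% of all genes tested. By adjusted p alone 9 did, beside 84.6% of all, each in a test where every direction counts.

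Of 16 measured genes of mitosis, 15 were detected on all 4 arrays. Of these, 12 were highest on replicate 1, beside 37.9% of all named genes and 1 of 14 replication-dependent histone genes. The median deviation of the mitotic genes was 0.33, −0.28, −0.02 and −0.05. Most had a mean level below 0, where 42.2% of all genes were highest on replicate 1, while most replication-dependent genes lay above 2. The context groups were not matched to the histones for brightness or read under other normalizations. Mki67, the proliferation marker Ki-67, was at −1.64, −3.55, −3.26 and −3.15 (limma adjusted p = 2.47e-24), and Bub1, a spindle checkpoint kinase gene, at −3.14, −4.39, −4.47 and −3.93 (limma adjusted p = 6.92e-04). Both were highest on replicate 1. They were the 2 of 9 tested mitotic genes past limma's test with the 2-fold minimum, beside 4.25% of all genes tested. By adjusted p alone 8 passed, beside 84.6% of all, a share near theirs. The cyclin genes Ccnb1 and Ccnb2 were at −1.53, −2.29, −2.11, −2.09 and at −0.80, −1.12, −0.99, −0.99. The mitotic kinase gene Cdk1 was at 1.31, 0.50, 1.14 and 1.30, low on replicate 2 as H2az1 was.

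Of 13 measured genes listed for the making and processing of replication-dependent histone mRNA, 8 were detected on all arrays and 3 more on some. Npat and Casp8ap2 were detected on none. Slbp, whose protein binds the stem-loop, was at −1.07, −1.25, −0.80 and −1.22 (mean −1.08 ± 0.21). Lsm10 and Lsm11, of the U7 snRNP that guides the cut, were at −2.59, −2.01, −2.33, −2.42 and at −1.78, −2.08, −2.13, −1.96. Cpsf3, the nuclease that cuts, was at −3.00, −3.59, −3.88 and −3.63. The group's median deviation stayed between −0.09 and 0.07 on all arrays, and none of its genes had the repeated spots that the test needs.

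Histone chaperones carry histones to DNA, and they were listed together with other genes of histone deposition, such as Ruvbl1, Ruvbl2 and Ep400. Of 21 genes of this list measured, 16 were detected on all 4 arrays, with a median deviation of 0.17, −0.12, −0.00 and 0.03. Highest on replicate 1 were 11 of the 16, again beside 37.9% of all. Asf1b was at −1.32 on replicate 1 and between −1.74 and −1.51 on replicates 2 and 3, Chaf1b of the replication-coupled CAF-1 complex at 0.16, −0.02, 0.01 and −0.07, and its partner Rbbp4 at 0.98, 0.74, 0.93 and 0.83. Hira, which deposits H3.3 outside replication, was at −4.31, −4.34, −4.93 and −4.78. None of 8 tested passed limma's test with the 2-fold minimum, beside 4.25% of all genes tested. By adjusted p alone 7 did, beside 84.6% of all.

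**Figure D4:**
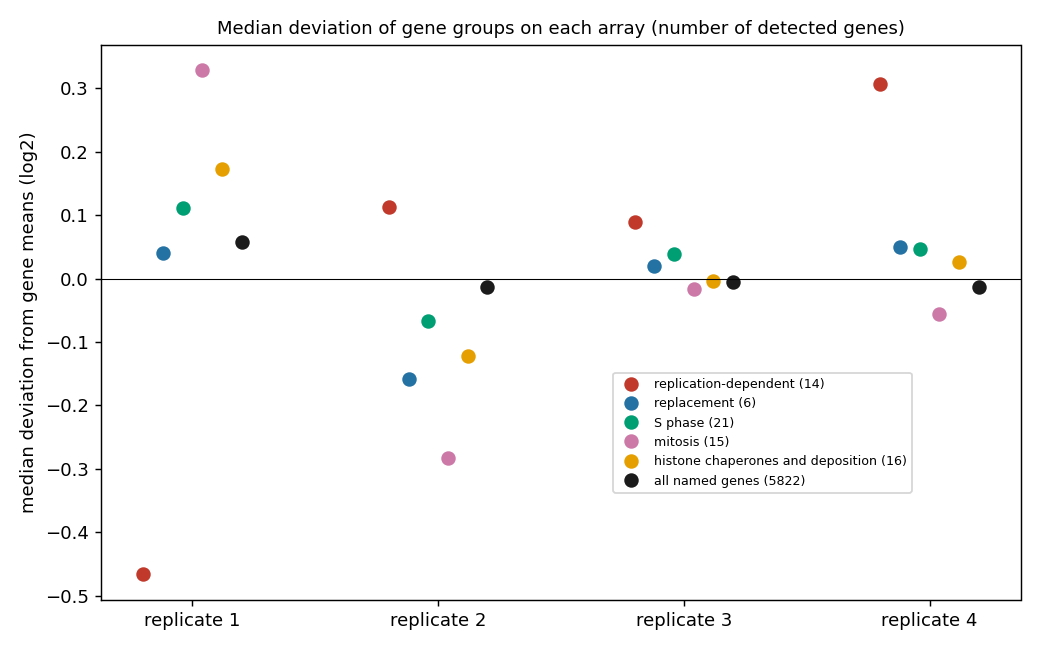
Median deviation from gene means (log2) on each of the 4 arrays for detected genes of each group, with the number of genes in brackets in the legend. Replication-dependent histones lie lowest on replicate 1 at −0.47 and highest on replicate 4 at 0.31, while mitotic genes are highest on replicate 1 at 0.33. The groups were not matched for brightness.

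The cells matched their label by markers in part. Of 12 macrophage markers, 11 were detected on every array, Cd68, Csf1r, Itgam and Cd14 among them, and the other on some, while none of 6 epithelial, 5 fibroblast, 4 T cell, 2 B cell or 3 neutrophil markers was detected on all 4. Of 5 endothelial markers 3 were detected (Vwf, Pecam1 and Cdh5), and of 4 red blood cell markers 1 (Hba-a1). Vwf was at 0.47, 1.33, 1.25 and 1.05 and Hba-a1 at −3.32, −2.53, −2.86 and −3.15, both lowest on replicate 1 as the replication-dependent histones were. Cdh5 was lowest there too, at −5.75, −4.95, −5.32 and −5.39, and Pecam1 highest there, at −2.29, −2.39, −2.66 and −2.74. Their part in the histone values was not tested.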

How the data were processed

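The members and gene lists were chosen with earlier results of these data known. The deposited values are intensity per spot, with flags of 0 or 1. Agilent Feature Extraction 11.0.1.1 is named in the submitters' processing notes. Per the file headers, background was subtracted and spatial trends removed on each array, with no normalization between arrays. Genes were named by matching the accession to RefSeq genes (GRCr8), which named 21102 of 45598 probes. Control and outlier spots were left out, spots of a probe were averaged as log2, and the 75th percentile over probes detected on all 4 arrays was subtracted (only 22.9% of probes were). A probe was detected when more than 50% of its spots were well above background, and a gene when any probe was. The probe with the highest mean gave the level. Every detected member is named, and of each context list the first 4 detected genes and any called. The 99th percentile of negative controls was 5.14 to 7.05 intensity units, and 4 arrays limit the precision.

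Arrays were compared by the moderated F of limma 3.58.1 (R 4.3.3), adjusted by Benjamini-Hochberg over 1594 probes. In data simulated with spot noise only, calls were made by adjusted p under 0.05, without the 2-fold minimum. Changes of 1 (log2) on 1 array were called in 96 of 100 probes, and changes of 2 in 97 of 100. A false call was made in 0.574% of 1394 unchanged ones. These shares do not cover the 2-fold minimum or differences between arrays that many genes share. Motifs were exact letter matches. Alternatives were normexp (offset 50, on the median signal), quantile and cyclic loess normalization, other scalings, detection rules, fold minima and probe rules, outlier spots kept, no filter on dim probes, a block for top or bottom spots, and leaving out each replicate. Cyclic loess, and the other scalings in the test, were added after seeing the data. The remaining steps ran in Python 3.11.15 with pandas 2.3.3, numpy 2.4.6 and matplotlib 3.10.9.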

Additional observations from a re-analysis of the deposited data

Results flagged for a closer look

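In 6 of the 21 detected histone genes, 1 array stood so far from the others that its gap to them, as a share of the range over the 4 arrays, was past the limit of Dixon's test. Chance alone puts about 1 in 20 such groups past it, and arrays share their RNA between genes, so these genes are not separate observations. Replicate 1 was the low array in 5 of them. Its level was −3.59 in H2ac21, 5.11 in H2ac4, 3.08 in H3f4, 2.02 in the H4 gene Hist1h4b and 4.18 in the H3 gene Hist2h3c2. In the linker histone gene H1f5 the array that stood apart was replicate 3, at 1.69 and highest. By class, 5 of 14 replication-dependent genes, 0 of 6 replacement genes and the 1 germline gene were past that limit, beside 0 of the 17 named context genes and 6.03% of all 5822 named genes with a level. Past it with replicate 1 low were 1.55% of all, 3.81% of those with a mean level of 2 to 4 and 8.28% of those at 4 or above.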

How the results depend on the processing

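Detection of 14 replication-dependent and 6 replacement genes was the same under every alternative run, and 10 to 16 replication-dependent genes were lowest on replicate 1 in each setting that held that array, 16 being of 18 with dim probes included. The share of all named genes lowest there was 25.0% in the main setting and 55.5% with dim probes included. With normexp it was 46.9%, beside 14 of 14 replication-dependent genes. With the other scalings it was 34.5% and 36.8%, beside 13 of 14 such genes. With quantile and cyclic loess normalization it was 28.0% and 31.2%, beside 10 of 14. Leaving out 1 replicate put the median SD of replication-dependent genes between 0.12 and 0.47 and their span over arrays between 0.16 and 0.81, the low ends being without replicate 1. For replacement genes the span then lay between 0.061 and 0.238, lowest without replicate 2. The count of 3 histone genes past limma's test was 7 with a 1.5-fold minimum, 14 with none, 0 under quantile normalization and 0 under cyclic loess (14 and 13 by adjusted p alone), and 0 to 3 with 1 replicate left out, being 0 without replicate 1 and without replicate 4. With normexp it was again 3, of which only Hist1h2bg was shared, and H1f0 and H2bc12 entered. The other scalings added H2bc12. The cause of these changes was not tested. Over all genes the test called 224 genes (25.7%) at 1.5-fold and 369 (27.3%) without the filter on dim probes, against 37 (4.25%). With normexp it called 2.18%, and under quantile normalization and cyclic loess 3.21% each. The SD of 13 of 21 genes moved past the limit of 1.5 times without replicate 1. Under quantile normalization and under cyclic loess it fell past that limit in 5 of 21 each. In both these were H2ac4, Hist1h2af, Hist1h2ail1, Hist2h3c2 and H3f4. With quantiles, H2ac4 went from 0.24 to 0.09 and Hist2h3c2 from 0.20 to 0.09. The median SD was then 0.31 in replication-dependent genes, 0.22 in replacement genes and 0.22 over all named genes. No paired analysis was possible because the 4 arrays form 1 group. Single spots and low signal limit Hist1h2bo, H2ac21 and H2ax most.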
